A study of Mus musculus with 2 samples.

Results

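The cytosolic ribosomal protein genes encode the proteins that, together with ribosomal RNA, build the large and small subunits of the ribosome outside mitochondria. They were taken as all annotated protein-coding genes with a read whose symbol starts with Rpl or Rps and a digit, together with Rplp0, Rplp1, Rplp2 and Rpsa, and without the S6 kinase genes. The rule gave 88 genes of 16910 annotated nuclear genes with a read, 53 named for the large and 35 for the small subunit. Of the 92 genes that the annotation holds under the rule, Rpl10l, Rpl39l, Rpl9-ps1 and Rpl36-ps4 had no read. The 88 comprised 77 genes of the canonical ribosome (46 large, 31 small), 5 paralogues of such genes, 5 intronless copies that carry a copy's name but are annotated as coding, and Rps19bp1, which encodes a protein that binds Rps19 and is no ribosomal protein itself.

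RNA came from adrenal glands of 2-month-old female mice of the cross named B6CASTF1/J, whose 2 parental genomes differ at many bases, and was read as long cDNA molecules in 2 libraries. No genotype, treatment or second condition is given, so both libraries form 1 group, called replicates 1 and 2. The biosample labels number the animals differently, whereas both library labels carry the same animal number and the same donor identifier, so whether the glands came from separate animals is not settled. P-values here set a difference between these 2 libraries against counting error alone, and such a difference may be technical. An RNA input of 1 µg is given for replicate 1 only.

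Replicate 1 held 1209457 reads of annotated nuclear genes and replicate 2 held 502655. Levels are given as reads per 1000000 of these reads (CPM), and since each long read stands for 1 cDNA molecule they were not divided by length. The floor, the level that a count of 0 still allows (3 counts), was 2.48 CPM in replicate 1 and 5.97 in replicate 2, and intervals and floors cover counting error only. Markers of the labelled tissue were high in both libraries. The cortical genes Cyp11a1, Cyp11b1, Cyp21a1 and Star summed to 55161 and 73721 CPM, the medullary genes Th, Chga, Dbh and Pnmt to 6231 and 4333 CPM, and a list of liver, kidney and muscle genes to 91.0 and 43.8 CPM.

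Each ribosome holds 1 copy of nearly every ribosomal protein, and cells therefore need the proteins in like amounts. Their mRNAs are known to begin with a C followed by a run of pyrimidines, the terminal oligopyrimidine tract, through which mTOR signalling and the RNA-binding protein Larp1 control their translation. These genes have also seeded a large number of intronless copies in mammalian genomes, most of them annotated as processed pseudogenes, and several of the genes produce alternatively spliced mRNAs that nonsense-mediated decay removes.

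The sequences around the annotated start sites show which members carry such a tract close to the annotated start in the reference. Windows of 30 bases, 10 before and 20 from the annotated start, were read from RefSeq promoters of GRCm38.p6, with the tract in capitals. The first 5 are members with a tract, and Rplp0, the most abundant member, is shown as one without.
Rpl13a, chr7:45128726-45128755, minus strand: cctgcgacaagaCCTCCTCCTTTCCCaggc
Rpl35, chr2:39005112-39005141, minus strand: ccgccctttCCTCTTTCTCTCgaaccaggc
Rps6, chr4:86857348-86857377, minus strand: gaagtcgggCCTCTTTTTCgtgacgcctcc
Rpl27a, chr7:109519185-109519214, plus strand: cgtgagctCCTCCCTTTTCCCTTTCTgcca
Rpl15, chr14:18270967-18270996, minus strand: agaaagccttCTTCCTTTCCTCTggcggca
Rplp0, chr5:115559457-115559486, plus strand: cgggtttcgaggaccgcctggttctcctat

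RefSeq promoters were matched for 64 of the 88 members, with 76 annotated starts. The motif searched, on the strand of the gene, was a C no more than 2 bases from the annotated start followed by at least 4 bases that were each C or T. It was held by 23 of 76 member starts (30.3%), against 8.96% of all 32851 starts in the table and 10.7% of 75 starts of mitochondrial ribosomal protein genes. By gene it was found for 22 of 64 members (34.4%) against 10.6% of all genes. Tracts ran from 5 to 18 bases, the longest in Rpl27a. By subunit it was held by 31.1% of large and 29.0% of small subunit starts, and no test of this difference was made. The annotated base itself was required to be the C in an alternative count, which gave 14 of 76 member starts (18.4%) against 2.51% of all starts, with 15.6% of large and 22.6% of small subunit starts. With any C within 5 bases, 32 member starts (42.1%) and 18.4% of all starts held the motif. A match describes letters of the reference and not the base at which the reads of these libraries began. Among the 12 most abundant members 9 had a promoter in the table, and of these Rpl13a and Rpl35 held the motif.

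The ribosomal protein genes held 28007 reads in replicate 1 and 8193 in replicate 2, which is 2.32% and 1.63% of nuclear gene reads. Their summed level was 23157 CPM in replicate 1 and 16299 CPM in replicate 2 (19728 ± 4849, SD, n = 2). Replicate 1 was the higher library for both subunits, at 14994 against 10964 CPM for the large (12979 ± 2849) and 8163 against 5336 CPM for the small (6749 ± 1999). In these whole glands fewer cells of a type and less RNA per cell cannot be told apart. Of the 88 members 86 were detected, having 3 or more reads in both libraries. The order of the members was close to the same in both libraries, as log2 CPM values correlated across the 86 detected members (Pearson's r 0.958, Spearman's rho 0.923). These genes are not independent replicates, and each library's values share 1 depth.

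**Figure D1:**
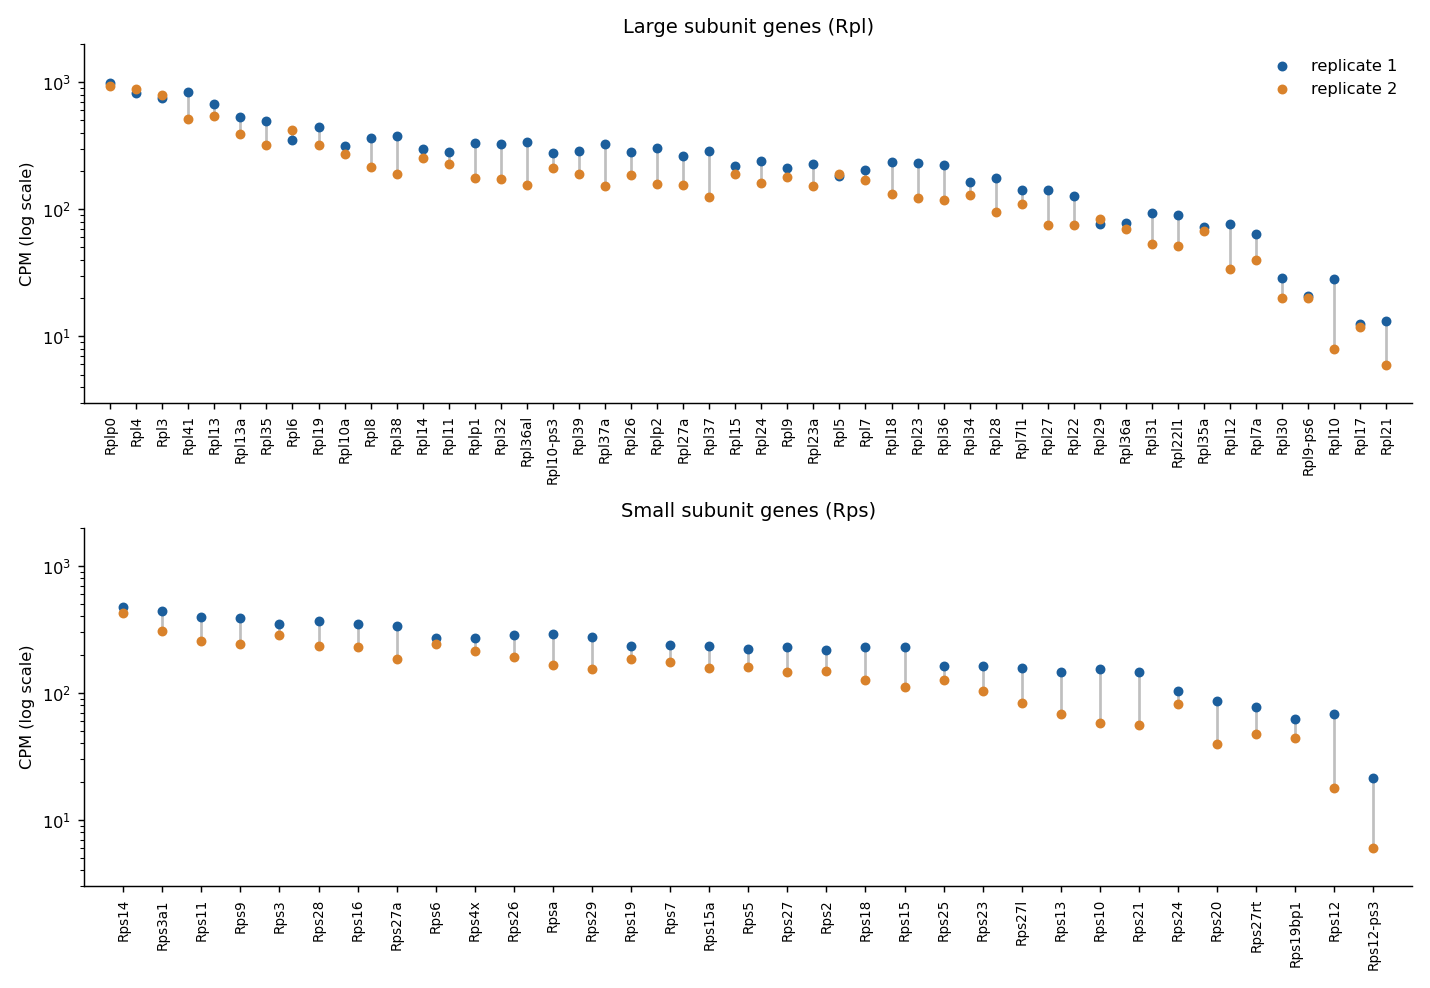
Level of detected ribosomal protein genes in CPM (log axis), large subunit genes above and small subunit genes below, ordered by mean. Each gene has 1 point for replicate 1 (blue) and 1 for replicate 2 (orange) joined by a grey line; most genes lie between 100 and 500 CPM with replicate 1 above replicate 2, and a tail of low genes ends with Rpl21 at 13.2 and 5.97 CPM and Rps12-ps3 at 21.5 and 5.97 CPM.

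Rplp0, the protein at the base of the ribosomal stalk that holds the other stalk proteins (ENSMUSG00000067274.10, chr5:115559467-115563727 of mm10, plus strand), had the highest mean, with 1194 reads (987.2 CPM) in replicate 1 and 467 (929.1 CPM) in replicate 2. Rpl4, which lines the tunnel through which the new peptide leaves, had 820.2 and 877.3 CPM. Rpl3, which lies close to the site of peptide bond formation, had 747.4 and 789.8 CPM. Rpl4 and Rpl3 stood slightly higher in replicate 2, and Rplp0 slightly lower. Rpl41, which encodes the smallest protein of the set, had 844.2 and 515.3 CPM.

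Among the leading members the means were 958.1 ± 41.1 CPM for Rplp0, 848.8 ± 40.4 for Rpl4, 768.6 ± 29.96 for Rpl3, 679.7 ± 233 for Rpl41 and 610.6 ± 95.4 for Rpl13. Rpl3 and Rpl41, and Rpl41 and Rpl13, did not differ beyond their spread. Rpl13a, Rps14, Rpl35, Rpl6, Rpl19 and Rps3a1 were also among the leading 12, between 461.1 ± 95.1 and 373.0 ± 97.0 CPM. Of these, Rps14 was the leading small subunit gene, at 476.3 and 427.7 CPM, and the 12 held 10 genes of the large subunit. In all, 11 genes were among the leading 12 of both libraries. This order leaves out reads on copies elsewhere in the genome, described below. With copies added, Rpl3 (mean 1137 CPM) stood above Rplp0 (988.7), and Rps6 (565.3) above Rps14 (453.2). Rps2 then stood at rank 11 (449.8 CPM) in place of rank 52 (182.5).

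By role, the stalk proteins Rplp0, Rplp1 and Rplp2, which recruit the elongation factors, summed to 1625 CPM in replicate 1 and 1263 in replicate 2. Rplp1 (255.0 ± 113 CPM) and Rplp2 (231.3 ± 102.0) stood well below Rplp0, and each was lower in replicate 2, whereas Rplp0 was nearly level between the libraries. Rpl5 and Rpl11, which carry 5S ribosomal RNA into the large subunit and outside the ribosome bind Mdm2, the ubiquitin ligase of p53, had 187.3 ± 5.26 and 256.2 ± 38.8 CPM. A list for the peptide tunnel, in which Rpl4, Rpl17 and Rpl39 line the tunnel and Rpl22 was grouped with them, summed to 1249 and 1154 CPM, most of it from Rpl4. The list around the tunnel exit (Rpl19, Rpl23a, Rpl26, Rpl31 and Rpl35, with Rpl24 and Rpl29 grouped with them) summed to 1860 and 1277 CPM.

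In the small subunit, Rps2 and Rps3 at the channel where mRNA enters summed to 563.9 and 433.7 CPM, without the reads on copies of Rps2. Rps15 and Rps23, which reach to the decoding centre, summed to 390.3 and 214.9 CPM. The 12 genes of proteins in the head of the small subunit summed to 2722 and 1731 CPM, led by Rps3 (316.3 ± 45.0 CPM), Rps28 (301.8 ± 94.8) and Rps16 (289.9 ± 83.5). Rps6, the substrate of S6 kinase, had 271.2 and 240.7 CPM, and Rps27a, which is translated as a fusion with ubiquitin, had 335.7 and 185.0 CPM. Each of these sums was higher in replicate 1.

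Paralogues were read beside the genes they resemble. Of the reads of Rpl7 and Rpl7l1 together, Rpl7l1 held 41.0% in replicate 1 (exact 95% interval 36.2 to 45.9) and 39.3% in replicate 2 (31.1 to 47.9). Rpl22l1 held 41.4% and 40.6% of the reads of its pair with Rpl22, an RNA-binding protein of the large subunit. Rps27l held 40.9% and 36.2% of its pair with Rps27. Within each of these 3 pairs the shares of the libraries overlapped within their intervals. Rpl36al held the larger part of its pair with Rpl36a, 81.2% in replicate 1 (77.5 to 84.5) and 69.0% in replicate 2 (59.6 to 77.4), intervals that did not overlap. Rpl3l, the form of Rpl3 known from skeletal and heart muscle, had 1 of the 905 reads of its pair in replicate 1 and 0 of 397 in replicate 2, where the exact interval reaches 0.925%. Besides Rpl3l, Rpl36a-ps1 also had 1 read in replicate 1 and 0 in replicate 2. Gene pairs of this kind share sequence, and reads may be placed on the wrong partner. Reads on copies elsewhere in the genome, described below, are not in these shares. Copies had 96 and 26 reads for Rps27, 24 and 10 for Rpl36a, 20 and 0 for Rpl7 and 437 and 189 for Rpl3. For the paralogues they had 5 and 0 reads for Rpl36al and 5 and 1 for Rpl22l1.

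At the other end of the range stood genes of proteins that every ribosome holds. The 8 lowest detected members were Rpl21, Rpl17, Rps12-ps3, Rpl10, Rpl9-ps6, Rpl30, Rps12 and Rpl7a, of which Rps12-ps3 and Rpl9-ps6 are copies annotated as coding. Rpl21 (ENSMUSG00000041453.12, chr5:146832890-146835986, plus strand) had 16 reads in replicate 1 and 3 in replicate 2, 13.2 and 5.97 CPM. Rpl17, of the peptide tunnel, had 15 and 6 reads. Rpl10, which joins late in the maturation of the large subunit (ENSMUSG00000008682.13, chrX:74270812-74273135, plus strand), had 34 and 4 reads, a mean of 18.04 ± 14.25 CPM. These canonical genes thus lay far below the median of the 77 canonical members, 204.9 CPM, and the highest and the lowest of the 77 differed 99.8-fold in mean CPM.

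Reads on copies of these genes at other places in the genome were therefore counted. Copies were sought, in a search chosen after the members' values were seen, among annotated pseudogenes and members that carry a copy's name. Those taken had a read and a transcript that aligned to another member's coding transcript at 90% identity or more (blastn). The alignment had to span at least 80% of the shorter of the 2 transcripts. This gave 185 copies, of which 5 are themselves members. The 180 outside the members held 5788 reads in replicate 1 and 1478 in replicate 2, equal to 20.7% and 18.04% of the members' own reads. Of the 180, 176 are annotated with 1 exon, 104 have a name starting with Gm, 19 aligned at 100% identity, 22 had at least 100 reads over both libraries and 51 had 1 read. Copies had reads for 68 of the 77 canonical members.

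For 8 canonical members the copies held more reads than the gene itself in both libraries. Beside the 16 and 3 reads of Rpl21, its 9 copies had 416 and 95 reads, 96.6% ± 0.45 of the reads of gene and copies. Beside the 34 and 4 reads of Rpl10, its copies had 338 and 108, of which Rpl10-ps3 (chr9:50344201-50344968, minus strand), an intronless member of the set, held 336 and 107. Rpl17 had 15 and 6 reads against 111 and 36 on its copies, and Rpl30 had 35 and 10 against 138 and 25. The same order was found for Rpl35a (88 and 34 reads against 356 and 82), Rps2 (261 and 75 against 353 and 122), Rps6 (328 and 121 against 445 and 126) and Rpl27 (172 and 38 against 190 and 42). Single copies with many reads were Rpl3-ps1 with 435 and 188 reads, Gm8172, a copy of Rps6, with 388 and 112, Gm14303, a copy of Rps29 at 100% identity, with 386 and 52, Rps2-ps13 with 314 and 115 and Rpl37rt with 310 and 71.

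Gene and copy differ at few bases, shown here around 1 such base, 30 bases of the gene's annotated transcript and of the copy (M21 annotation, GRCm38). The differing base is in capitals, and positions are counted from base 1 of the gene's transcript.
Rpl21: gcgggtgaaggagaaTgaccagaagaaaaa
Rpl21-ps15: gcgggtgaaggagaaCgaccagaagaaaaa
Rps6: gcgcaagtctgttcgTggatgcattgtgga
Gm8172: gcgcaagtctgttcgCggatgcattgtgga
Rpl30: cgtgctgggctacaaGcagactctgaagat
Gm12191: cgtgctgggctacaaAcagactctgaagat
Rpl35a: tgcttatgtgtataaGgcaaaaaacaatac
Gm10243: tgcttatgtgtataaAgcaaaaaacaatac
Rpl10 and Rpl10-ps3: ggctccagacagggatgcgtggtgcctttg
Rpl21-ps15 (T630C) differed from Rpl21 at 3 of 483 aligned bases and Gm8172 (T380C) from Rps6 at 6 of 750. Gm12191 (G273A) differed from Rpl30 at 1 of 348 bases and Gm10243 (G246A) from Rpl35a at 1 of 333. Rpl10-ps3 did not differ from Rpl10 over 740 bases, so the window shown is the same for both. The sources used here do not give how the authors' alignment placed reads between a gene and such a copy. The levels of these members are therefore uncertain, and they are given with and without copies.

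**Figure D2:**
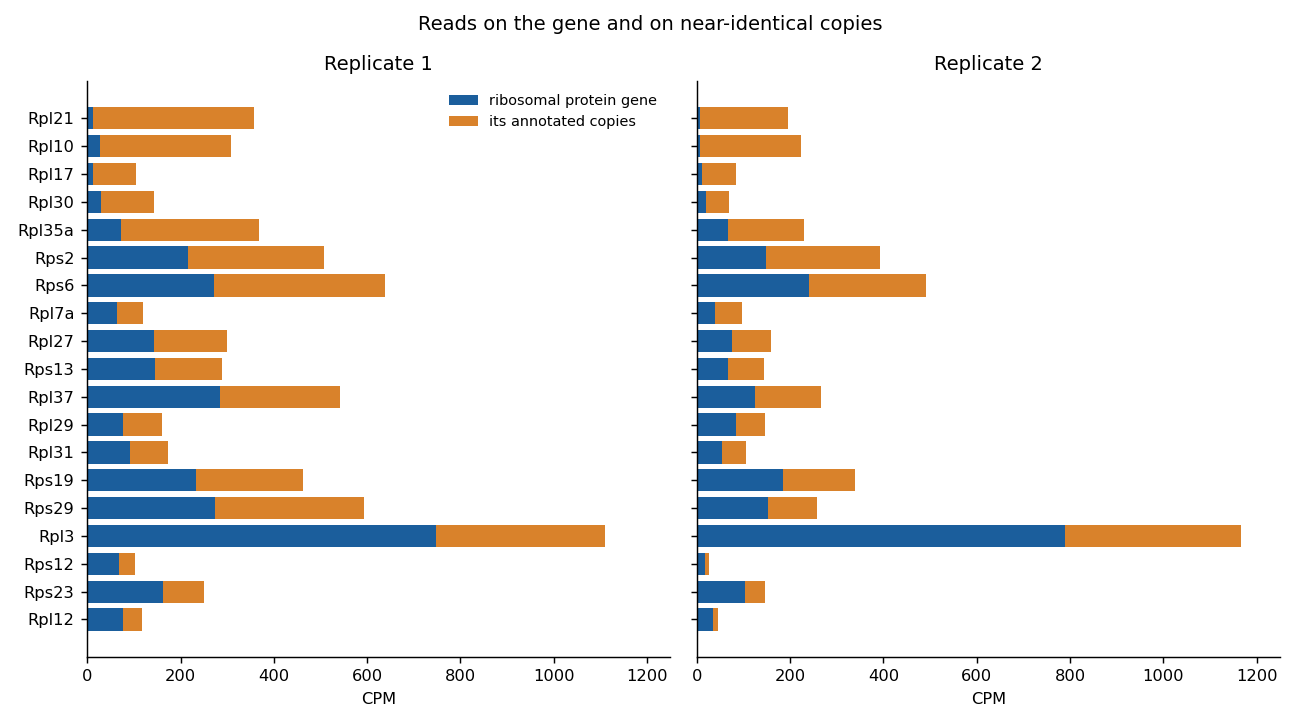
CPM of canonical ribosomal protein genes with a large share of reads on copies, replicate 1 at left and replicate 2 at right, on a linear axis from 0. The blue bar is the gene and the orange bar stacked on it its annotated copies; for Rpl21, Rpl10 and Rpl17 nearly the whole bar is copies in both libraries, and for Rpl12 at the foot the gene itself holds most.

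With the reads of copies added to their gene, the canonical members spanned from 63.3 CPM (Rps20) to 1137 CPM (Rpl3), a 17.97-fold range in place of 99.8-fold. The number under 100 CPM fell from 13 to 6, the number under 50 CPM from 5 to 0, and the median moved from 204.9 to 253.4 CPM. Library totals were kept, so added reads could only raise a level, and the direction of these counts and of the median was fixed. Rpl21 stood at 276.1 ± 115 CPM with its copies and 9.60 ± 5.13 without them, Rpl10 at 265.2 ± 59.9 and 18.04 ± 14.25, and Rps6 at 565.3 ± 104.5 and 256.0 ± 21.5. Means with and without copies were 93.9 and 12.2 CPM for Rpl17 and 106.3 and 24.4 for Rpl30. They were 298.9 and 70.2 for Rpl35a, 449.8 and 182.5 for Rps2, and 229.2 and 108.9 for Rpl27. Among the 8 lowest canonical members, 5 had more than 50% of the reads of gene and copies on copies, as the mean of the libraries. Of these, Rpl7a had 46.9% in replicate 1 and 59.2% in replicate 2. Rps20, with no reads on copies, and Rps12 (63.8 ± 53.6 CPM with its copies) were the lowest when copies were counted.

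Replicate 2 was compared with replicate 1 per gene with Fisher's exact test (two-sided) on reads. P-values were adjusted by Benjamini-Hochberg over the 10170 genes that had 10 or more reads in the libraries together, and a gene was called where the adjusted p was under 0.05 and the difference at least 2-fold. The test compares 2 libraries and not conditions, and with 1 library a side a difference has no replicate check. Of 86 members tested, 11 were called lower and 0 higher in replicate 2, while of all genes tested 3.59% were called lower and 5.96% higher. At an unadjusted p under 0.05, 1 member was higher. Without the 2-fold minimum 49 members were lower and 0 higher, against 8.58% of all genes lower. The median log2 ratio of the members was -0.62, beside -0.06 over all genes tested, and 80 of 86 lay below 0. Markers of the 2 parts of the gland moved between the libraries as well. Of the 4 cortical genes, Cyp21a1 was called higher in replicate 2 (log2 ratio 1.00), beside Cyp11b1 at 0.47, Star at 0.07 and Cyp11a1 at -0.03. Of the 4 medullary genes, Pnmt was called lower (-1.03), beside Chga at -0.77, Th at 0.07 and Dbh at 0.62. Their part in the difference of the ribosomal protein genes was not tested. Scaling by TMM or median of ratios moved the median of all genes by 0.018 and 0.013, and the same 11 members were called.

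The lowest of the called members was Rps12, a protein of the head of the small subunit, with 82 reads (67.8 CPM) in replicate 1 and 9 (17.9 CPM) in replicate 2 (log2 ratio -1.85, SE 0.49, adjusted p = 2.2e-04). Rps10, of the head as well (ENSMUSG00000052146.16, chr17:27630418-27635244, minus strand), had 185 and 29 reads (-1.39, SE 0.29, adjusted p = 1.9e-06), and Rps21 had 175 and 28 (-1.36, SE 0.29, adjusted p = 6.5e-06). Further called genes were Rpl37 (-1.18), Rpl12 (-1.14), Rpl36al (-1.12), Rps20 (-1.10), Rps13 (-1.09), Rpl37a (-1.08) and Rps15 (-1.02). Of the 11, 7 were among the 35 small subunit members tested and 4 among the 51 large. At any fold 23 of the 35 and 26 of the 51 were lower, with median log2 ratios of -0.64 and -0.60. No test of this difference was made. Rps21 had a log2 ratio of -0.73 (adjusted p = 0.077) in annotated transcripts alone, Rps13 one of -0.79 (adjusted p = 0.074) with replicate 1 thinned to the depth of replicate 2, and Rps15 fell below 2-fold with thinning (-0.95) and without genomic reads (-0.92). All 11 kept their call with copy reads added, when the members called lower numbered 15, Rps29 (-1.20) and Rpl30 (-1.02) among them.

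Members above or near 0 were Rpl6 (0.25), Rpl29 (0.14), Rpl4 (0.10), Rpl3 (0.08), Rpl5 (0.06) and Rpl17 (0.01), and none of them passed the test. Of the lowest ratios, Rpl10 (-1.67, SE 0.72, adjusted p = 0.060) and Rps12-ps3 (-1.65, SE 0.82) rested on 4 and 3 reads in replicate 2 and missed the threshold. By role, 4 of 12 genes of the head of the small subunit were called lower (Rps10, Rps12, Rps15 and Rps20). This count stands beside 11 of all 86 members and 3.59% of all genes tested, and no test of the difference was made. At any fold 8 of the 12 were lower, beside 49 of all 86 members. With the trend of all genes with length and GC content removed, Rps15 (-0.61) and Rps20 (-0.91) fell below 2-fold. The p-values were not recomputed, and 2 of the 12 kept their call. Among the decoding centre genes 1 of 2 was called lower, Rps15, which is also counted with the head. No gene of the stalk, the Rpl5 and Rpl11 pair, the tunnel, the tunnel exit or the mRNA entry was called, although 2 of 3 stalk genes and 5 of 7 tunnel exit genes were lower at any fold.

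The difference between the libraries ran with transcript length over all genes, and ribosomal protein mRNAs are short, with a median main transcript of 777.5 bases against 2702.5 for other genes. In bins of length chosen after the data were seen, the median log2 ratio under 500 bases was -0.60 for other genes (n = 168) and -0.87 for members (n = 14). From 500 to 750 bases the medians were -0.55 for other genes (n = 306) and -0.71 for members (n = 23), and from 750 to 1000 bases -0.42 (n = 447) and -0.51 (n = 26). From 1000 to 1500 bases they were -0.12 (n = 1084) and -0.42 (n = 13), and from 1500 bases 0.01 (n = 8075) and -0.35 (n = 10). The median of the members lay below that of other genes in each of the 5 bins. In the last bin, which has no upper bound, lengths were not alike, with medians of 1930 bases for members and 3144 for other genes. Members had more reads than other genes in each bin, with a median of 340 reads against 55 in the last. Among genes with at least 100 reads, the medians of other genes and members were -0.68 and -0.83 under 500 bases. From 500 to 750 bases they were -0.63 and -0.71, and from 750 to 1000 bases -0.42 and -0.53. From 1000 to 1500 bases they were -0.13 and -0.42, and from 1500 bases -0.06 and -0.34. Of the 2015 other genes between the 10th and 90th percentile of member lengths (485 to 1575.5 bases), 4.42% were called lower. They were longer than the members (median 1128 against 777.5 bases) and had fewer reads (median 68 against 363). With at least 100 reads, 23.9% of 46 other genes and 15.4% of 13 members under 500 bases were called lower. From 500 to 750 bases it was 15.3% of 124 and 19.0% of 21, and from 750 to 1000 bases 8.81% of 159 and 9.52% of 21. From 1000 to 1500 bases it was 2.42% of 454 and 7.69% of 13, and from 1500 bases 3.87% of 2639 and 11.1% of 9. After removal of the trend that all genes showed with length and GC content, the members' median was -0.26, beside -0.04 over all genes. Calls here joined the ratios after removal to the p-values of the test before it, which were not recomputed. On this basis 3 members kept their call, Rps12, Rps10 and Rpl12, beside 315 of all 10170 genes called lower.

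**Figure D3:**
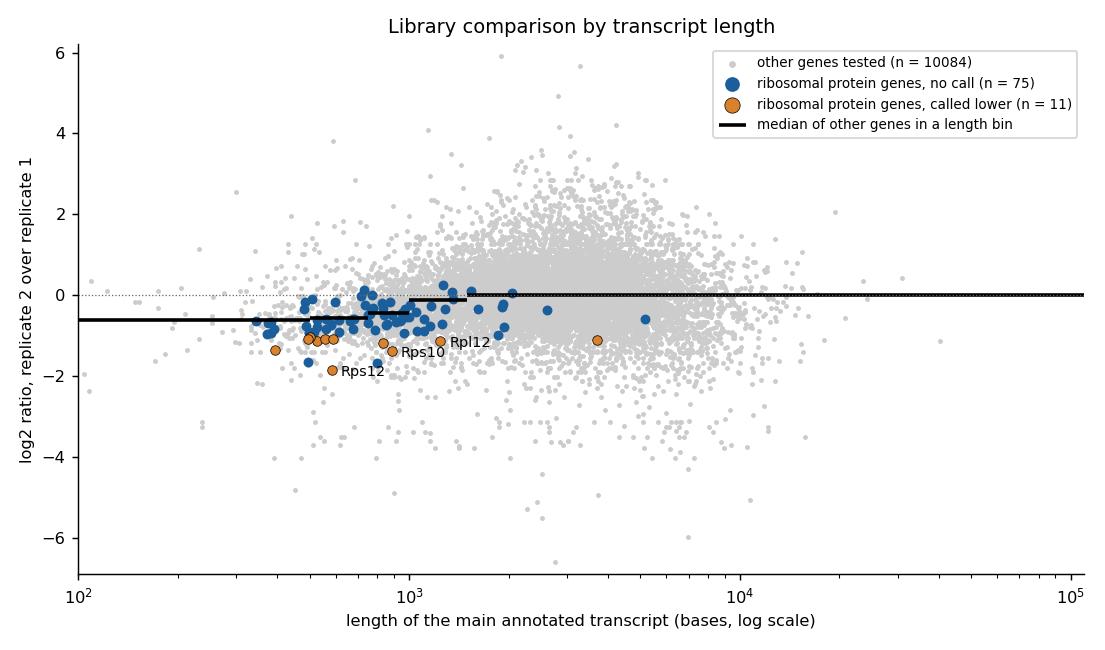
Log2 ratio of replicate 2 over replicate 1 against the length of the main annotated transcript (log axis), 1 point per gene tested: other genes grey, ribosomal protein genes blue where not called and orange where called lower, with black lines for the median of other genes in each length bin. The medians rise from -0.60 under 500 bases to 0.01 from 1500 bases, and the ribosomal protein genes lie mostly at the short end and under those lines.

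Genes that work with the ribosomal proteins were compared in the same way. Fau and Rack1, whose products are ribosomal proteins under other names, were each lower in replicate 2 at any fold, with log2 ratios of -0.76 and -0.52, and neither was called. Of 17 other mRNAs known for a pyrimidine start, among them the elongation factors Eef1a1 (835.1 and 889.3 CPM) and Eef2 (1529 and 1518 CPM), 0 were called, 1 was higher and 2 lower at any fold, and their median was -0.01. Their median transcript length was 1794 bases. Counts in these lists stand beside 5.96% of all genes called higher and 3.59% called lower. Of 32 tested genes of ribosome assembly 1 was called lower, a share near that of all genes: Nop58 (-1.06), a core protein of small nucleolar ribonucleoproteins. Of 13 genes for the control of ribosomal protein mRNA translation, Rps6kb2 was called higher (14 and 25 reads), and Rps6kb1, which encodes S6 kinase (99 and 18 reads), and the mTOR partner Rptor (37 and 4 reads) were called lower. Mtor (19 and 10 reads) and Larp1 (62 and 36 reads) were not called. Of the 78 mitochondrial ribosomal protein genes, 2 were called higher and 6 lower, with a median of -0.33. No test of the difference between these lists and the ribosomal protein genes was made.

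Most reads of the ribosomal protein genes matched an annotated transcript along its whole chain of introns. Annotated transcripts held 88.9% of member reads in replicate 1 (exact 95% interval 88.6 to 89.3) and 90.9% in replicate 2 (90.2 to 91.5). Other nuclear genes had 79.0% ± 3.85, and other genes between the 10th and 90th percentile of member lengths 87.3% ± 1.54. Reads new in catalog, which join annotated splice sites in another way, were 0.647% ± 0.103 of member reads, and reads new not in catalog, which use a splice site outside the annotation, 1.01% ± 0.07. For other genes of like length these were 3.21% ± 0.505 and 2.33% ± 0.196. Genomic reads, which match none of the spliced classes, made up 0.555% ± 0.094 of member reads and 1.88% ± 0.728 of reads of genes of like length.

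Incomplete splice matches, reads with part of an annotated intron chain, made up 8.91% of member reads in replicate 1 and 6.87% in replicate 2. The mean was 7.89% ± 1.44, beside 9.36% ± 3.22 for other nuclear genes and 5.22% ± 1.52 for other genes of like length. For mitochondrial ribosomal protein genes it was 2.83% ± 1.32. Most incomplete matches of members kept the 3′ part (6.58% ± 1.10 of member reads, 3.58% ± 0.907 for genes of like length). In members, incomplete matches were concentrated in few genes. Among 61 members with at least 50 reads in each library the median share was 2.68%, and it was over 20% in 3 members, Rpl39 and Rpl23 among them. For Rpl39, a tunnel protein, the share was 40.6% and 31.6%, from a model of 1 exon with 140 and 30 reads. Rpl23 had 15.5% and 27.4%.

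Annotated transcripts with a retained intron or a nonsense-mediated decay type held 1.49% of member reads in replicate 1 (1.35 to 1.63) and 1.92% in replicate 2 (1.63 to 2.24). Most of this was retained introns, at 1.58% ± 0.27. The share of both types was 0.918% ± 0.162 for other nuclear genes, 1.20% ± 0.02 for other genes of like length and 1.51% ± 0.18 for mitochondrial ribosomal protein genes. Of the 61 members with at least 50 reads in each library, 4 had a mean share over 5%. Rpl5 led, with 65 of 222 reads (29.3%) in replicate 1 and 50 of 96 (52.1%) in replicate 2, of which 60 and 50 were Rpl5-204. In Rpl10a, 52 of 381 reads (13.6%) and 35 of 138 (25.4%) were of these types, with 26 and 22 in Rpl10a-206. Both genes have an intronless copy at 100% identity, Gm15500 for Rpl5 (107 and 37 reads) and Rpl10a-ps1 for Rpl10a (39 and 7 reads). Reads on these copies are not in the totals, and with them added both shares would be lower. Rpl14 had 8.06% and 3.94%, Rpl37 0.870% and 7.94%, and Rpl6 7.29% and 1.43%, so that the libraries changed order between these genes.

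Several of these genes are known to control their own splicing through forms that are degraded. For Rpl3 the retained intron form Rpl3-204 had 12 and 8 reads of 873 and 391 spliced reads. Rpl12-201, a nonsense-mediated decay form, had 5 of 86 spliced reads in replicate 1 and 0 of 14 in replicate 2. Of Rps3, 388 of 389 and 135 of 137 spliced reads were the main form Rps3-201. Another 32 and 6 reads of Rps3 were incomplete splice matches, which are not in these totals. Rpl30 had 18 and 4 reads of Rpl30-202 and 15 and 6 of Rpl30-201, both annotated as coding. Forms that are degraded can be low whatever the rate at which they are made, and the counts here are of what remained.

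For most members 1 transcript carried nearly all spliced reads. The main transcript, the most abundant among annotated and new spliced models, had a median share of 94.9% over 60 members with at least 50 such reads in each library, beside 93.0% over all 1887 genes, and 44 of the 60 had a share over 90%. With the reads of both libraries added up, the main transcript was an annotated one in all 87 members with a spliced read. In replicate 2 alone a new form had more reads than any annotated one in Rps24 (12 against 8 of Rps24-210) and in Rpl17 (2 against 1 of Rpl17-201). The share was compared between the libraries with Fisher's exact test (two-sided), adjusted over the 1887 genes, and called where the adjusted p was under 0.05 and the difference at least 10 percentage points. Of the 60 members 1 was called, with 0.742% of all genes called, and which member it was depended on the transcripts counted.

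The called gene was Rps15, of the decoding centre (ENSMUSG00000063457.14, chr10:80292453-80294114, plus strand). Rps15-202 held 204 of 221 spliced reads (92.3%) in replicate 1 and 38 of 52 (73.1%) in replicate 2, so that the share fell by 19.2 points (Fisher's exact test, adjusted p = 0.034). Rps15-201, whose coding part is annotated with 354 bases in place of 435 and begins further into the gene, had 13 and 8 reads, and a new form had 3 and 5. Rpl5 had 66.8% and 45.7% for Rpl5-201 and missed the threshold (adjusted p = 0.056). Reads on its intronless copy Gm15500 are not in these shares. In annotated transcripts alone Rpl5 was called in place of Rps15, the 1 call among 58 members. With incomplete and genomic reads in the total 3 members were called, Rpl5 and Rpsa among them, and Rps15 was not, and with at least 100 reads required 0 of 22 members were called.

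**Figure D4:**
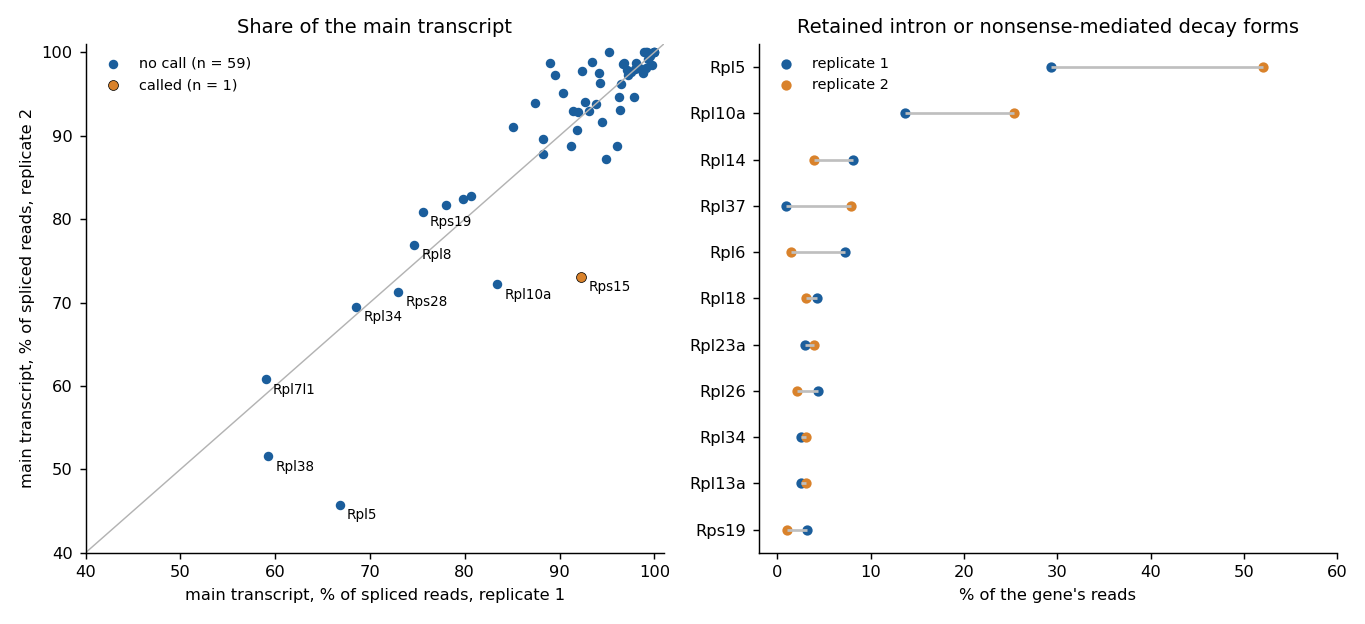
Left, the share of the main transcript among spliced reads in replicate 1 (horizontal axis, %) and replicate 2 (vertical axis, %) for 60 ribosomal protein genes, with the line of equality and Rps15 in orange as the 1 called gene; most points crowd over 90% in both. Right, the share of each gene's reads in annotated retained intron or nonsense-mediated decay transcripts (%), in replicate 1 (blue) and replicate 2 (orange), for genes with a high mean, where Rpl5 at 29.3% and 52.1% stands apart.

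Members with a low main share mostly used a second annotated form in both libraries. The lowest mean shares were those of Rpl38 (55.4%), Rpl5 (56.3%), Rpl7l1 (59.9%), Rpl34 (69.0%), Rps28 (72.1%), Rpl8 (75.8%), Rpl10a (77.8%) and Rps19 (78.2%). Reads on copies are not counted with their gene in these shares. Rpl38 had 265 and 49 reads of Rpl38-204 and 156 and 36 of Rpl38-201. Rpl34 had 120 and 41 reads of Rpl34-202 and 44 and 14 of Rpl34-201, and Rpl8 had 307 and 80 of Rpl8-201 and 102 and 23 of Rpl8-202. Rps28 had 321 and 82 reads of Rps28-205 and 116 and 33 of Rps28-201. Rps19, whose human gene is the one most often mutated in Diamond-Blackfan anaemia, had 204 and 72 reads of Rps19-203 and 34 and 11 of Rps19-202. In each of these 5 pairs both forms are annotated with the same first and last coding base and the same coding length, so they differ outside the coding part.

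In Rpl22l1 and Rps28 the forms differ by a few bases at a splice junction. Joined exon ends are shown, 15 bases on each side, with bases present in 1 form and absent in the other in capitals (M21 annotation, GRCm38).
Rpl22l1-201: ctcaacatggcgccgCAGaaagacaagaag
Rpl22l1-206: ctcaacatggcgccgaaagacaagaagcct
Rps28-205: tcttgcagctgGTGGggttctggatatcca
Rps28-201: ttaatcttgcagctgggttctggatatcca
Rpl22l1-206, the shorter form, had 65 and 17 reads and Rpl22l1-201 had 31 and 8. The 3 bases lie in the coding part, which is 363 bases in Rpl22l1-206 and 366 in Rpl22l1-201. The shorter form held 60.2% of spliced reads in replicate 1 and 65.4% in replicate 2, so the order of the forms was the same in both. In Rps28 the longer exon end, with 4 more bases, was the main form in both libraries.

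Chains of introns absent from the annotation numbered 279 over all members, of which 212 had 1 read in total and 8, in 8 genes, had at least 3 reads in both libraries. Of the 8, 5 use a splice site outside the annotation of the gene. In Rpl7l1 (chr17:46773907-46782656, minus strand) a new form with intron chr17:46775737-46778046 had 57 of 161 spliced reads (35.4%) in replicate 1 and 18 of 51 (35.3%) in replicate 2. All of that intron lies below base 46778063, where the coding part ends on this strand, so it lies after the stop codon.

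In Rps24 (ENSMUSG00000025290.17, chr14:24487125-24496959, plus strand), known for short alternative exons near the end of its coding part, a new form had 28 of 90 spliced reads (31.1%) and 12 of 27 (44.4%). It holds an exon of 36 bases at chr14:24494052-24494087, where the annotation has an exon of 18 bases with the same first base. The last 30 bases of the exon follow, with the 18 bases that the annotated exon lacks in capitals, and below it the junction of Rps24-210, which skips the exon.
Rps24 new form, chr14:24494058-24494087, plus strand: aatacctagcagGTACTGCCATTGGGCACG
Rps24-210 junction: ggtgctggcaaaaagccaaaggagtagatc
Rps24-210 had 39 and 8 reads. Read in frame past the last shared exon, Rps24-210 has 3 codons before TAG, and the new form has 1 codon before TGA, which falls in the first bases of the exon. The added bases thus lie after the stop.

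Smaller shifts were found in Rplp2 and Rpl13, with bases of the annotated form that the new form leaves out in capitals.
Rplp2 annotated: ctgcccccgctgcagCAGaggagaagaaag
Rplp2 new: ctgcccccgctgcagaggagaagaaagatg
Rpl13 annotated: tctcctgtataggagGCAGccatggcgccc
Rpl13 new: tctcctgtataggagccatggcgcccagcc
In Rplp2 the intron ends 3 bases later, within the coding part, in 14 of 364 spliced reads in replicate 1 and 4 of 80 in replicate 2. In Rpl13 it ends 4 bases later, just before the coding part begins at base 123102659 of chromosome 8, in 12 of 782 and 3 of 257 reads (1.53% and 1.17%). The remaining shared forms were a new form of Rps15 (3 and 5 reads) and, with annotated splice sites in a new combination, forms of Rps14 (16 and 6 reads), Rpl3 (6 and 9) and Rps19 (7 and 5).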

How the data were processed

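The authors deposited, per library, whole-number read counts per transcript model, not normalised, with the models themselves. Per the deposited readme files, counts derive from a filtered alignment on mm10 with GENCODE M21; new models carry the source TALON. No source used here gives the aligner, the platform or strand handling. Per gene, reads of all classes were added up and scaled as CPM over nuclear gene reads (94.7% and 96.6% of 1277310 and 520388 reads). Log2 ratios used 0.5 added reads, and SEs cover counting only. Python 3.11.15, scipy 1.17.1, edgeR 4.0.16 (TMM), DESeq2 1.42.0 (median of ratios) and blastn 2.17.0 were used, and tests were tested on simulated data.

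Some member genes and related genes are counted in the totals but not reported here by name. Members and lists were chosen with earlier results of these data known. Length bins, copies, canonical members alone and per-gene incomplete shares were chosen after the data were seen. Named genes are the 12 highest and 8 lowest levels, paralogues, called members, the 6 largest and 6 smallest log2 ratios, the 8 lowest main transcript shares, the 6 highest decay or retained intron shares, the 8 most abundant shared new forms, genes known for regulated splicing, members under 3 reads, and members of role lists. Alternatives covered scaling, read minimums, classes, thinning and the length and GC trend.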

Additional observations from a re-analysis of the deposited data

How the results depend on the processing

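No paired analysis was possible because there is 1 group. With the length and GC trend removed, the members' median log2 ratio moved from -0.62 to -0.26 and the number called lower from 11 to 3. The p-values of these calls were those of the test before removal. The number called higher was 0 in each of the 9 alternatives run for it. The members called for main transcript share, 1 as reported, numbered 1 in annotated transcripts alone (Rpl5 in place of Rps15), 3 with all classes in the total and 0 with at least 100 reads. Counting the annotated base alone gave 14 starts with a pyrimidine tract in place of 23. Medians of per-gene shares were 94.9% for annotated transcripts, 3.00% for incomplete matches and 0.0928% for decay or retained intron forms. Shared new forms numbered 2 with at least 10 reads in both libraries and 29 with at least 1. Leaving out a replicate in turn gave summed levels of 16299 to 23157 CPM, annotated shares of 88.9% to 90.9%, incomplete shares of 6.87% to 8.91%, and decay or retained intron shares of 1.49% to 1.92%. No result reversed in these alternatives. In replicate 2 the depth limits genes under 5.97 CPM, and ratios of members with under 10 reads there, Rps12 among them, rest on few counts.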
